A study of Gallus gallus with 6 samples.

Results

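The 4 genes described here are 3 secreted proteases, *ADAMTS1*, *ADAMTS9* and *ADAMTS15*, and *ACAN*, which encodes aggrecan, a proteoglycan that enzymes of this family cut. They were chosen by gene number, as gene1589, gene12797, gene16808 and gene11836, out of 17992 genes in the table. RNA-seq was performed on 6 whole small yellow follicles of wild type hens aged 30 weeks, without any treatment and with 1 library per follicle. T4 and T1 are the follicles of hen 1, T5 and T2 those of hen 2, and T6 and T3 those of hen 3. The study took T4, T5 and T6 as the follicles with more mRNA of *FSHR*, the receptor of follicle-stimulating hormone. By its qRT-PCR the difference was large in hen 1, small in hen 2 and within the reported error in hen 3. The sample titles give T4, T5 and T6 the lower *FSHR* expression and T1, T2 and T3 the higher. In the table, *FSHR* was at 46.4 FPKM in T4, 18.9 in T5 and 27.8 in T6, against 11.9 in T1, 13.1 in T2 and 13.9 in T3, so that the values go against the titles. FPKM is the number of fragments per kilobase of transcript, scaled by the authors to the size of the library. All comparisons set the trio of T4, T5 and T6 over the trio of T1, T2 and T3. The deposited table gives genes as numbers only, and the names used here come from the annotation of genes selected as differing between T4 and T1. For that selection the paper asked, among other things, for a fold change of 2 or more. What a gene did in hen 1 therefore decided whether it had a name. This holds for the 4 genes and for every other gene, list member and marker named here, so that counts, medians and directions in hen 1 are no independent evidence and say nothing of the unnamed genes of a list. The naming used neither hen 2 nor hen 3. Results over the 3 hens, such as p-values and trios that do not overlap, include hen 1, so they rest in part on what the naming used. The shares of all genes given beside any result here, those of hens 2 and 3 included, are over genes not chosen by hen 1. They are no like reference for a named gene.

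ADAMTS enzymes are zinc metalloproteases that cells release into the extracellular matrix, where thrombospondin repeats help to place them on their substrates. *ADAMTS1*, *ADAMTS9* and *ADAMTS15* belong to the branch of the family that cuts large chondroitin sulfate proteoglycans that bind hyaluronan, among them aggrecan and versican. In the mouse ovary, *ADAMTS1* is induced in granulosa cells around ovulation and is needed for normal follicles. Aggrecan is best known as the main proteoglycan of cartilage. In a whole small yellow follicle the oocyte, the granulosa layer and the theca, with its fibroblasts, vessels, smooth muscle and nerve, are measured together. Fewer cells of a type therefore cannot be told apart from less RNA per cell.

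Between 12554969 and 13933189 fragments on genes were estimated per follicle from the steps of the normalized counts, so depth differed little. T4 was the least like the rest. Its Spearman correlation over genes was 0.932 to 0.963 with the others, against 0.965 to 0.981 among the other 5, and 11895 genes reached 1 FPKM in T4, against 12067 to 12497 elsewhere. Of 12 granulosa markers 6 could be named, and their summed level, most of it from *ZP3*, was 5268 to 12996 FPKM in T4, T5 and T6, against 2172 to 2746 FPKM in T1, T2 and T3. *FSHR*, *ZP3* and *INHA* did not overlap between the trios, while *NR5A1*, *BMPR1B* and *GATA4* did. The study told the follicles apart by *FSHR*, so its direction is no independent result. Of all 12381 genes tested over the hens, 5.94% had T4, T5 and T6 above T1, T2 and T3 without overlap. *GATA4* was at 203 FPKM in T4, 54.9 in T5 and 69.6 in T6, against 79.3 in T1, 56.5 in T2 and 73.2 in T3. The 7 named markers of theca and stroma fibroblasts, of 11, summed to 995 FPKM in T4, the lowest of the 6 follicles, and T4, T5 and T6 ranged up to 5860 FPKM, against 3874 to 6693 FPKM in T1, T2 and T3. None of these matched markers was at 0 in any follicle. No oocyte, red blood cell, cartilage or bone marker on the lists could be tied to a gene number, so these cells were not analysed here.

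*ADAMTS15* had the highest level of the 4 genes in 5 of 6 follicles. It was at 212 FPKM in T4, 48.9 in T5 and 79.3 in T6, against 38.4 in T1, 40.1 in T2 and 33.1 in T3. The trios did not overlap, since the lowest of T4, T5 and T6 lay above the highest of T1, T2 and T3. The same held for 5.94% of all 12381 genes tested over the hens. That share is over genes not chosen by hen 1, while *ADAMTS15* was named through it. T1, T2 and T3 lay within 1.21-fold of each other, while T4, T5 and T6 spread over 4.34-fold, with T4 at 2.68 times the next highest follicle. The mean was 113 ± 86.9 FPKM in T4, T5 and T6 and 37.2 ± 3.63 FPKM in T1, T2 and T3 (SD, n = 3 each). In T4, *ADAMTS15* ranked 585th among all genes of the table by FPKM, and in the other follicles it ranked between 1632 and 3340.

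*ADAMTS9* had a similar order of follicles at lower levels. It was at 85.2 FPKM in T4, 33.2 in T5 and 45.5 in T6, against 34.1 in T1, 29.3 in T2 and 30.6 in T3. T4 was again the highest and T6 the next, but T5 lay just under T1, so the trios overlapped in FPKM. In normalized counts they did not, with 3885 in T5, the lowest of its trio, against 3793 in T1, the highest of the other, as in 8.41% of all genes tested. From lowest to highest, T4, T5 and T6 spread over 2.57-fold and T1, T2 and T3 over 1.16-fold.

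*ADAMTS1* followed another pattern. Its level was 50.2 FPKM in T4, 21.0 in T5 and 36.6 in T6, against 19.4 in T1, 17.5 in T2 and 50.2 in T3. T4 and T3, which belong to different trios and different hens, were the 2 highest and nearly equal, and the trios overlapped. The mean was 35.9 ± 14.6 FPKM in T4, T5 and T6 and 29.0 ± 18.3 FPKM in T1, T2 and T3 (SD, n = 3 each). Paired by hen, the mean log2 ratio was 0.38, smaller than its SD over the hens of 0.90. In T3 *ADAMTS1* had the highest level of the 3 proteases, whereas in the other 5 follicles it had the lowest.

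*ACAN* had a low level in every follicle and ranked between 12817 and 14996 among the 17992 genes. Its level was 0.0109 FPKM in T4, 0.596 in T5 and 0.339 in T6, against 0.484 in T1, 0.360 in T2 and 0.166 in T3. These values rest on 1 fragment in T4, 54 in T5 and 31 in T6, against 48 in T1, 34 in T2 and 16 in T3. All 6 values are under 1 FPKM, so *ACAN* did not pass the filter for the test over hens, and 3 of the 4 genes did. T4 stands alone at the low end, with an exact Poisson 95% interval of 0.0253 to 5.57 fragments that covers counting error only. T5, T6, T1, T2 and T3 lay within 0.166 to 0.596 FPKM, and the trios overlapped.

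By mean level per length, the order in T4, T5 and T6 was *ADAMTS15* at 113 FPKM, *ADAMTS9* at 54.6 ± 27.2, *ADAMTS1* at 35.9 and *ACAN* at 0.315 ± 0.293. In T1, T2 and T3 it was the same, with *ADAMTS15* at 37.2 FPKM, *ADAMTS9* at 31.3 ± 2.44, *ADAMTS1* at 29.0 and *ACAN* at 0.337 ± 0.160 (SD, n = 3 each). The ranges of neighbouring proteases overlapped within each trio. Within single follicles, *ADAMTS15* was above *ADAMTS9* in 6 of 6, and the order of the genes was not tested. *ACAN* was below each protease in every follicle.

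**Figure D1:**
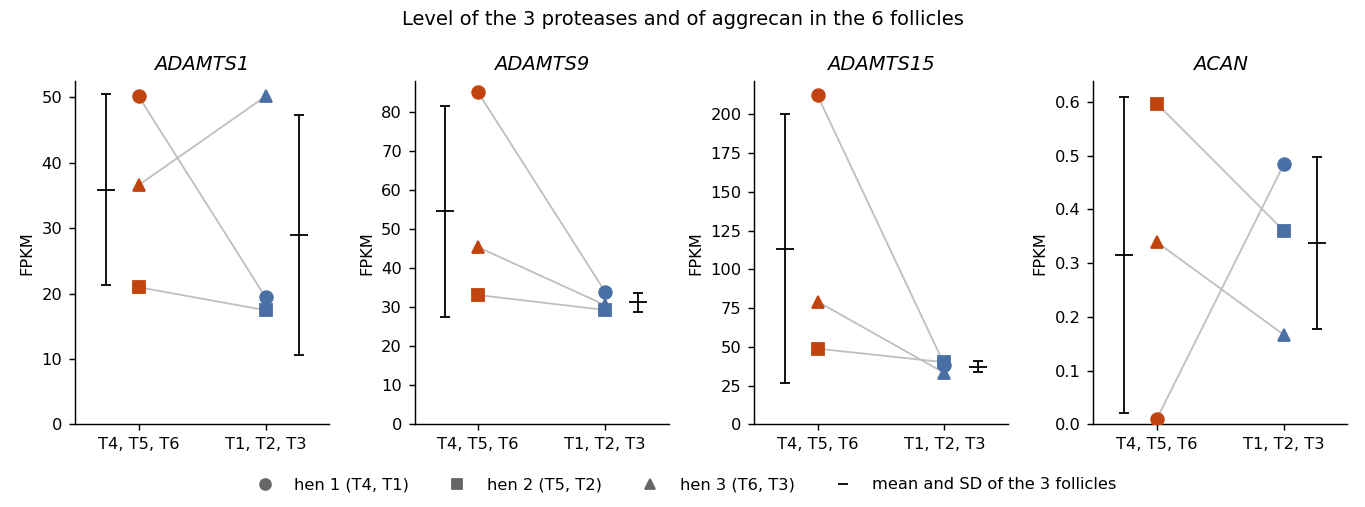
Level in FPKM (vertical axis, from 0) of *ADAMTS1*, *ADAMTS9*, *ADAMTS15* and *ACAN* in T4, T5 and T6 (left, red) and in T1, T2 and T3 (right, blue). Grey lines join the 2 follicles of a hen, symbols mark the hens, and black bars give the mean and SD of 3 follicles. For *ADAMTS15* all of T4, T5 and T6 (48.9 to 212 FPKM) lie above T1, T2 and T3 (33.1 to 40.1 FPKM), and for *ACAN* every point is under 0.6 FPKM.

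The genes lie on different chromosomes: *ADAMTS1* on chromosome 1 from 102362145 to 102371157 on the minus strand, *ADAMTS9* on chromosome 12 from 13714361 to 13779448 on the minus strand, *ADAMTS15* on chromosome 24 from 1673179 to 1684921 on the plus strand, and *ACAN* on chromosome 10 from 12539847 to 12565461 on the minus strand. Starts and ends are those of the deposited table, for which the sources used here name conflicting builds. Transcript lengths in the table are 5099 bases for *ADAMTS1*, 8612 for *ADAMTS9*, 4842 for *ADAMTS15* and 6415 for *ACAN*. *ADAMTS15* lies inside gene16807, which the table places on the minus strand from 1652505 to 1686030. No setting for strand is stated in the sources used here, so reads of *ADAMTS15* and of gene16807 cannot be told apart with certainty. gene16807 was at 2.14 FPKM in T4, 11.1 in T5 and 25.4 in T6, against 8.57 in T1, 9.78 in T2 and 21.9 in T3. It was lowest in T4, where *ADAMTS15* was highest, and its level was below that of *ADAMTS15* in every follicle. The other 3 genes overlapped no other gene of the table.

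Within hens, 1 follicle is set against 1, so these ratios have no replicate check and no test. They are given as folds of FPKM, and as folds of normalized counts with an exact 95% interval from the fragments, which covers counting error only. In hen 1, all 3 proteases were more than 2-fold higher in T4 than in T1, where a 2-fold difference was a condition of the naming. Over all genes with at least 1 FPKM in either follicle, 5.38% were higher by 2-fold or more and 13.3% were lower. These shares are over genes not chosen by hen 1, so no excess can be read from them in that hen. In hen 2 none of the proteases differed 2-fold, with 1.46% of genes higher and 3.31% lower by that much. In hen 3, *ADAMTS15* was the protease that was 2-fold higher or more, with 2.61% of genes higher and 4.41% lower. The median log2 ratio of all such genes was 0.01 in hen 1, -0.02 in hen 2 and 0.01 in hen 3.

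*ADAMTS15* was 5.52-fold higher in T4 than in T1, 1.22-fold higher in T5 than in T2 and 2.39-fold higher in T6 than in T3. In normalized counts the folds were 5.53 (5.27 to 5.80), 1.25 (1.18 to 1.33) and 2.36 (2.23 to 2.50). The direction was therefore the same in the 3 hens, beyond the counting error in each, though hen 1 is where the gene was named. Of all genes tested, which were not chosen by hen 1, 14.7% were also higher in the 3 hens. Among genes with at least 1 FPKM, its log2 ratio lay at percentile 99.4 in hen 1, 82.5 in hen 2 and 98.4 in hen 3. Its estimated fragments were rounded for the intervals. They lay 0.46 from a whole number in T4, 0.42 in T6 and 0.02 in T3.

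*ADAMTS9* was 2.50-fold higher in T4 than in T1, 1.13-fold higher in T5 than in T2 and 1.49-fold higher in T6 than in T3. The folds of normalized counts were 2.44 (2.35 to 2.53), 1.16 (1.10 to 1.21) and 1.48 (1.41 to 1.54). Hen 1 thus had the largest ratio, then hen 3 and then hen 2, the order that *ADAMTS15* and *FSHR* also had. Of all genes tested, 4.92% were higher in the 3 hens with the ratios in this order. That share is over genes not chosen by hen 1, while these 3 genes were named through it, which favours a large ratio there.

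*ADAMTS1* was 2.58-fold higher in T4 than in T1 and 1.20-fold higher in T5 than in T2, but T6 was at 0.729 of the level of T3. The folds of normalized counts were 2.60 (2.42 to 2.79) in hen 1, 1.33 (1.22 to 1.45) in hen 2 and 0.765 (0.721 to 0.811) in hen 3. Hen 3 went the other way, beyond its counting interval.

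*ACAN* in T4 was at 0.0227 of the normalized count in T1, with an interval of 0.000562 to 0.133 that reflects the single fragment in T4. In hens 2 and 3 the direction was the opposite. T5 was 1.65-fold (1.05 to 2.61) higher than T2, and T6 was 2.03-fold (1.08 to 3.98) higher than T3. Both intervals lie above 1, but their lower ends are close to it, at 54 and 34 fragments in T5 and T2, and at 31 and 16 in T6 and T3. With 0.5 FPKM added to every value, as in the comparison over hens, the log2 ratios of *ACAN* shrink to -0.95 in hen 1, 0.35 in hen 2 and 0.33 in hen 3.

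**Figure D2:**
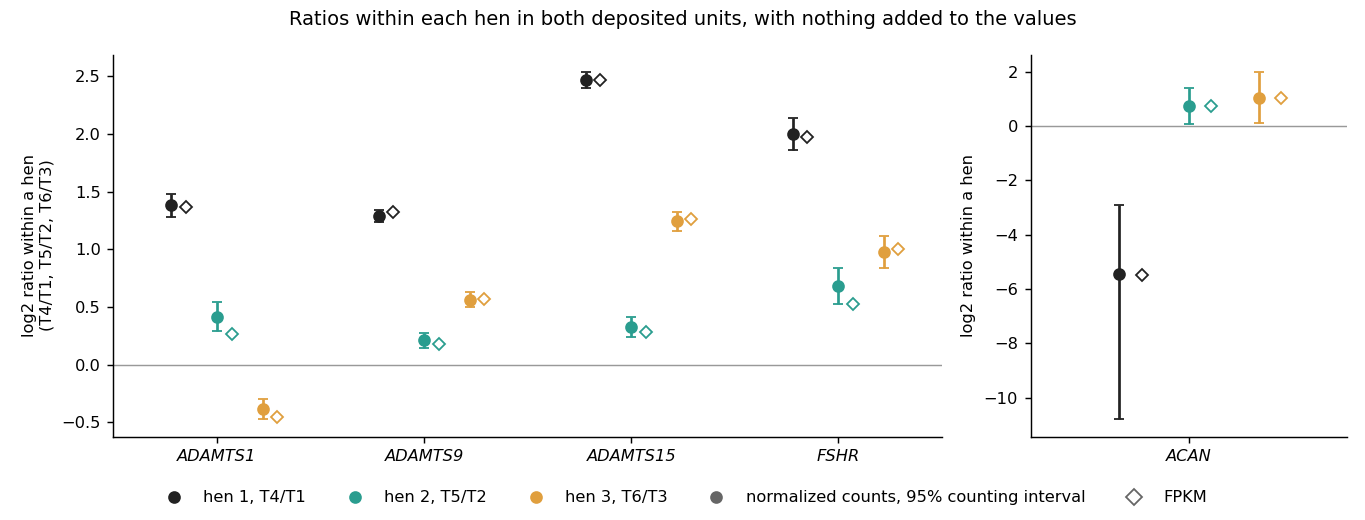
The log2 ratio of T4 over T1, T5 over T2 and T6 over T3 (vertical axis) for the proteases and *FSHR* (left) and *ACAN* (right, with its own scale). Filled circles are ratios of normalized counts with the exact 95% interval from fragments, open diamonds are ratios of FPKM, and colours mark the hens. *ADAMTS9*, *ADAMTS15* and *FSHR* lie above 0 in the 3 hens, *ADAMTS1* falls below 0 in hen 3, and *ACAN* lies below 0 in hen 1 alone.

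Over the 3 hens, limma with the hen as a block on log2(FPKM + 0.5) called 0 of 12381 genes at an adjusted p under 0.05, so percent called was 0.0% in either direction. At an unadjusted p under 0.05, 708 genes were found, 3.57% of genes as higher and 2.15% as lower in T4, T5 and T6. The mean log2 ratio was 1.33 for *ADAMTS15* (limma standard error 0.40, SD over hens 1.09), and it was higher in 3 of 3 hens (unadjusted p = 0.018, adjusted p = 0.774). For *ADAMTS9* it was 0.68 (standard error 0.25, SD 0.58), higher in 3 of 3 hens (limma, unadjusted p = 0.036, adjusted p = 0.774). For *ADAMTS1* it was 0.38 (standard error 0.35, SD 0.90), higher in 2 of 3 hens (limma, unadjusted p = 0.314, adjusted p = 0.802). None of the proteases passed the test over all genes, and the median over all genes tested was -0.04. The test includes hen 1, through which the proteases were named, so their unadjusted p-values are not independent of the naming. The mean for *ACAN*, which was not tested, was -0.09 with an SD of 0.74.

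These values depended on hen 1. Without it, the mean log2 ratio of *ADAMTS15* was 0.76, that of *ADAMTS9* 0.37 and that of *ADAMTS1* -0.10, so that *ADAMTS1* changed sign. *ADAMTS15* then passed the test (adjusted p = 0.0189, limma), together with 1.66% of genes in the same direction. That fit rests on T5, T6, T2 and T3 alone, so little is left to estimate the spread of a gene. Without limma's robust option the adjusted p for *ADAMTS15* was 0.214, with 0.477% of genes called as higher, and without trend or robust it was 0.362, with 0.0888% called. Both settings were chosen after the data were seen. Its adjusted p ranged from 0.0189 to 0.999 over 18 alternatives.

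The 3 proteases together amounted to 348 FPKM in T4, 103 in T5 and 161 in T6, against 91.9 in T1, 86.9 in T2 and 114 in T3. The sum was higher in T4, T5 and T6 in 3 of 3 hens, with log2 ratios of 1.91 in hen 1, 0.24 in hen 2 and 0.50 in hen 3. *ADAMTS15* made up 61.1% of it in T4, 47.4% in T5 and 49.1% in T6, against 41.8% in T1, 46.1% in T2 and 29.1% in T3. *ADAMTS1* held between 14.4% and 22.7% in every follicle other than T3, where it held 44.0%. *ADAMTS9* varied least, between 24.5% and 37.1%.

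Set over aggrecan, the summed protease level was 173 to 684 times the *ACAN* level in 5 follicles. In T4 such a fold would rest on a single *ACAN* fragment, and none is given. With 0.5 FPKM added to both, the log2 of protease over aggrecan was 9.41 in T4, 6.56 in T5 and 7.59 in T6, against 6.55 in T1, 6.67 in T2 and 7.42 in T3. Within hens it differed by 2.86 in hen 1, by -0.11 in hen 2 and by 0.17 in hen 3, with a mean of 0.97 and an SD of 1.64. An exact two-sided sign-flip permutation test over the 3 hens gave p = 0.50, where the smallest p that 3 hens allow is 0.25. Hen 1 alone made up most of the mean, which was 0.03 without it.

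**Figure D3:**
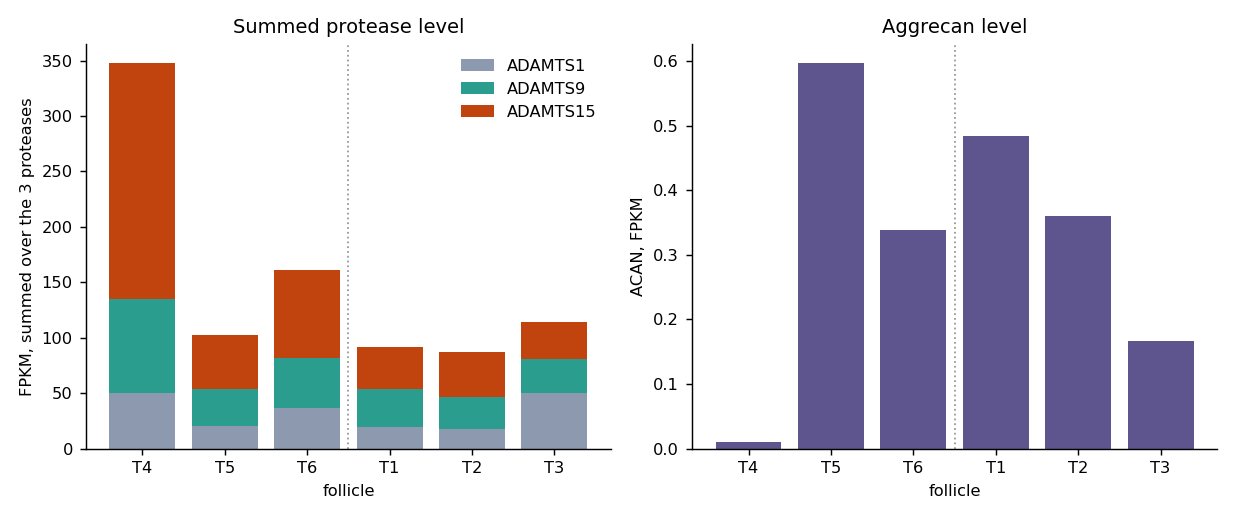
Stacked bars give the FPKM of *ADAMTS1*, *ADAMTS9* and *ADAMTS15* in each follicle (left), and bars give the FPKM of *ACAN* (right), with T4, T5 and T6 left of the dotted line and T1, T2 and T3 right of it. The protease sum is highest in T4 at 348 FPKM, where *ACAN* is at 0.0109 FPKM, and among the other follicles *ACAN* ranges from 0.166 to 0.596 FPKM. Both axes start at 0 and differ in scale.

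Across the 6 follicles, *ADAMTS9* and *ADAMTS15* went closely together, with a Pearson r of 0.98 on log2(FPKM + 0.5), and 0.91 over the 5 follicles without T4. Spearman's rho of this pair was 0.71. With *FSHR*, r was 0.94 for *ADAMTS9*, 0.97 for *ADAMTS15* and 0.61 for *ADAMTS1*, and 0.84, 0.94 and 0.35 without T4. By rank the order was another, with a rho of 0.66 for *ADAMTS9*, 0.83 for *ADAMTS15* and 0.77 for *ADAMTS1*. *ADAMTS1* had an r of 0.59 with *ADAMTS9* and 0.52 with *ADAMTS15*, which were 0.30 and 0.10 without T4. The r of *ACAN* was -0.83 with *ADAMTS1* and -0.79 without T4, whereas its r with *ADAMTS15* was -0.65 with T4 and 0.24 without it. These are descriptions over 6 follicles that share hens in pairs and a mixture of cells, and 532 of 12380 genes had an r above 0.9 with *ADAMTS15*, 576 with *ADAMTS9* and 147 with *ADAMTS1*.

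The 5 named genes most like *ADAMTS15* by Pearson r over the 6 follicles were *PTAR1*, *PFKFB3*, *PSME4*, *COLEC12* and *IDO2*, with r of 0.99 or more for each. *PFKFB3*, a regulator of glycolysis, was at 91.9 FPKM in T4, 17.3 in T5 and 33.7 in T6, against 11.1 in T1, 12.3 in T2 and 8.63 in T3, and its r without T4 was 0.998. *COLEC12*, a scavenger receptor with a collagen-like stretch, was at 150 FPKM in T4, 48.8 in T5 and 64.3 in T6, against 45.0 in T1, 41.4 in T2 and 35.1 in T3. Those most like *ADAMTS9* were *AGPS*, *BCAT1*, *GATA6*, *NTRK2* and *BAZ1A*, again with r of 0.99 or more. *AGPS*, an enzyme of ether lipid synthesis, had an r of 0.995, and *GATA6*, a transcription factor of granulosa and theca cells, of 0.992.

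*ADAMTS1* had another set of neighbours, *CYP26B1*, *COL25A1*, *PYGB*, *WASF3* and *CNGB1*, with r of 0.925 to 0.986. *CYP26B1*, which breaks down retinoic acid, was at 5.86 FPKM in T4, 1.76 in T5 and 3.96 in T6, against 2.004 in T1, 1.69 in T2 and 7.12 in T3. It was thus high in T4 and T3 as *ADAMTS1* was. Among those most like *ACAN* were *LOXL4*, *OPTC*, *ADORA1* and *SLC7A10*, with r of 0.858 to 0.948, and without T4 the r of these 4 was between 0.541 and 0.883. *LOXL4*, an enzyme that crosslinks collagen, was at 1.43 FPKM in T4, 8.28 in T5 and 3.36 in T6, against 6.99 in T1, 6.87 in T2 and 2.69 in T3. Only genes named from the comparison of T4 with T1 could be listed here, and all values of *ACAN* are low.

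Of 25 genes on a list of the ADAMTS family, 5 could be named, the 3 proteases among them. *ADAMTSL2*, a family member without protease activity that binds the matrix, was at 57.1 FPKM in T4, 21.8 in T5 and 25.5 in T6, against 13.0 in T1, 15.3 in T2 and 19.5 in T3. The trios did not overlap, with T4, T5 and T6 above, as in 5.94% of all genes tested. The mean log2 ratio was 0.99 (standard error 0.37, limma, adjusted p = 0.774). *ADAMTS12*, a protease of another branch, was at 0.450 FPKM in T4, 1.61 in T5 and 2.41 in T6, against 2.003 in T1, 0.869 in T2 and 3.04 in T3. It was lower in T4, T5 and T6 in 2 of 3 hens, and its mean log2 ratio was -0.35 (standard error 0.44). In the limma test 0 of the 5 passed, with a median log2 ratio of 0.68. In hen 1, where the naming was made, 4 of the 5 were higher and 1 was lower by 2-fold or more, with 5.38% and 13.3% of all genes. In hen 2 none of the 5 differed 2-fold, and in hen 3 *ADAMTS15* alone of them did. None of the 7 inhibitors on a list with the TIMPs could be tied to a gene number, so inhibitors were not analysed here.

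Among the other possible substrates, *VCAN* encodes versican, another large proteoglycan that these proteases cut. Its level was 71.1 FPKM in T4, 48.1 in T5 and 45.7 in T6, against 34.3 in T1, 30.0 in T2 and 31.1 in T3. The trios did not overlap, with T4, T5 and T6 above, as in 5.94% of all genes tested. The *VCAN* level was 70.8 to 187 times that of *ACAN* in the follicles other than T4, both per length. The mean log2 ratio of *VCAN* was 0.76 (standard error 0.17, SD 0.26), higher in 3 of 3 hens (limma, unadjusted p = 0.00548, adjusted p = 0.774). *VCAN* was named through hen 1, which this test includes. Hen 1 had a log2 ratio of 1.04, hen 2 of 0.67 and hen 3 of 0.55, and their SD was below that of each protease. *CSPG5*, a membrane proteoglycan best known from the brain, was at 1027 FPKM in T4, 355 in T5 and 397 in T6, against 253 in T1, 207 in T2 and 179 in T3. Its mean log2 ratio was 1.31 (standard error 0.28, limma, adjusted p = 0.774). Its trios did not overlap either, as in the same 5.94% of genes.

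The remaining named genes of the proteoglycan list went lower in hen 1. *CD44*, a receptor of hyaluronan, was at 0.688 FPKM in T4, 2.31 in T5 and 4.10 in T6, against 2.39 in T1, 1.67 in T2 and 6.65 in T3. *LUM*, which encodes the small proteoglycan lumican, was at 3.04 FPKM in T4, 17.3 in T5 and 29.3 in T6, against 20.7 in T1, 19.8 in T2 and 43.4 in T3. *DCN*, which encodes decorin, was at 41.5 FPKM in T4, 171 in T5 and 276 in T6, against 237 in T1, 148 in T2 and 261 in T3. T4 was the lowest follicle for each of the 3, as it was for *ACAN*. Of 32 genes on the list 6 were named and 5 tested, 0 passed in the limma test, and the median log2 ratio over the hens was -0.52. By hen, the median was -1.28 in hen 1, where the naming was made, 0.38 in hen 2 and 0.08 in hen 3.

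Of 35 enzymes that make or modify the sugar chains of proteoglycans, 8 could be named. All 8 were at least 2-fold higher in T4 than in T1, where the naming was made, with 5.38% of all genes. In hen 2, 1 of the 8 was 2-fold higher or more, with 1.46% of all genes, and in hen 3, 3 were, with 2.61%. The median log2 ratio of the list was 1.70 in hen 1, 0.56 in hen 2 and 0.83 in hen 3. *SULF1*, which removes sulfate from heparan sulfate, was at 42.5 FPKM in T4, 7.99 in T5 and 18.5 in T6, against 1.66 in T1, 1.10 in T2 and 4.79 in T3. *CHST12*, a sulfotransferase of chondroitin chains such as those on aggrecan and versican, was at 49.96 FPKM in T4, 25.99 in T5 and 39.7 in T6, against 16.1 in T1, 16.3 in T2 and 13.5 in T3. *CHST15*, which adds a further sulfate to such chains, was at 181 FPKM in T4, 102 in T5 and 114 in T6, against 52.5 in T1, 63.7 in T2 and 62.0 in T3. *NDST1*, of heparan sulfate synthesis, was at 98.1 FPKM in T4, 32.6 in T5 and 44.6 in T6, against 31.3 in T1, 25.2 in T2 and 20.5 in T3. The trios of these 4 genes did not overlap, with T4, T5 and T6 above, as in 5.94% of all genes tested. They are the 4 of the list with the largest mean ratio in hens 2 and 3, so this is a description only. In the limma test 0 of the 8 passed, and 6 were higher at an unadjusted p under 0.05, with 3.57% of all genes. In all 3 hens 6 of the 8 were higher, with 14.7% of all genes tested. Both counts include hen 1, where the naming asked for a 2-fold difference in either direction and all 8 were higher. The shares beside them are over genes not chosen by hen 1, so they are no like reference. Without hen 1, 4 of the 8 passed as higher, with 1.66% of all genes. Without limma's robust option 2 did, with 0.477%, and without trend or robust 1 did, with 0.0888%. These shares, and those given above for hens 2 and 3, are likewise over genes not chosen by hen 1. No excess of the list can be read from them.

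Of 30 other matrix proteases 8 were named. In hen 1, where the naming was made, 3 were higher and 5 lower by 2-fold or more, with 5.38% and 13.3% of all genes. Their median log2 ratio was -1.45 in hen 1, against 0.30 in hen 2 and -0.02 in hen 3. *ADAM23*, a membrane protein of the related ADAM family without protease activity, had a mean log2 ratio of 0.70 (standard error 0.24, limma, adjusted p = 0.774) and was higher in 3 of 3 hens. *MMP27*, a matrix metalloprotease, had log2 ratios of -2.01 in hen 1, -0.0018 in hen 2 and 1.14 in hen 3. *CTSK*, a collagen-cutting cathepsin, was at 36.7 FPKM in T4, 199 in T5 and 177 in T6, against 179 in T1, 180 in T2 and 265 in T3. Of 16 named genes of collagens and matrix glycoproteins, out of 43, 14 were at least 2-fold lower in T4 than in T1, again where the naming was made. Of all genes, which were not chosen by hen 1, 13.3% were lower by that much. In hen 2, 1 of the 16 was 2-fold higher and 0 were lower, with 1.46% and 3.31% of all genes. In hen 3, 1 was higher and 1 lower, with 2.61% and 4.41%. The median log2 ratio of the named genes was -2.34 in hen 1, 0.13 in hen 2 and -0.06 in hen 3. The exceptions in hen 1 were *COL4A3* and *COL4A4*, chains of basement membrane collagen, with log2 ratios of 1.85 and 1.62. *FBN2*, which encodes a fibrillin, had log2 ratios of -2.32 in hen 1, 0.14 in hen 2 and 1.08 in hen 3. In the limma test 0 of the 7 proteases tested and 0 of the 16 collagens and glycoproteins passed.

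**Figure D4:**
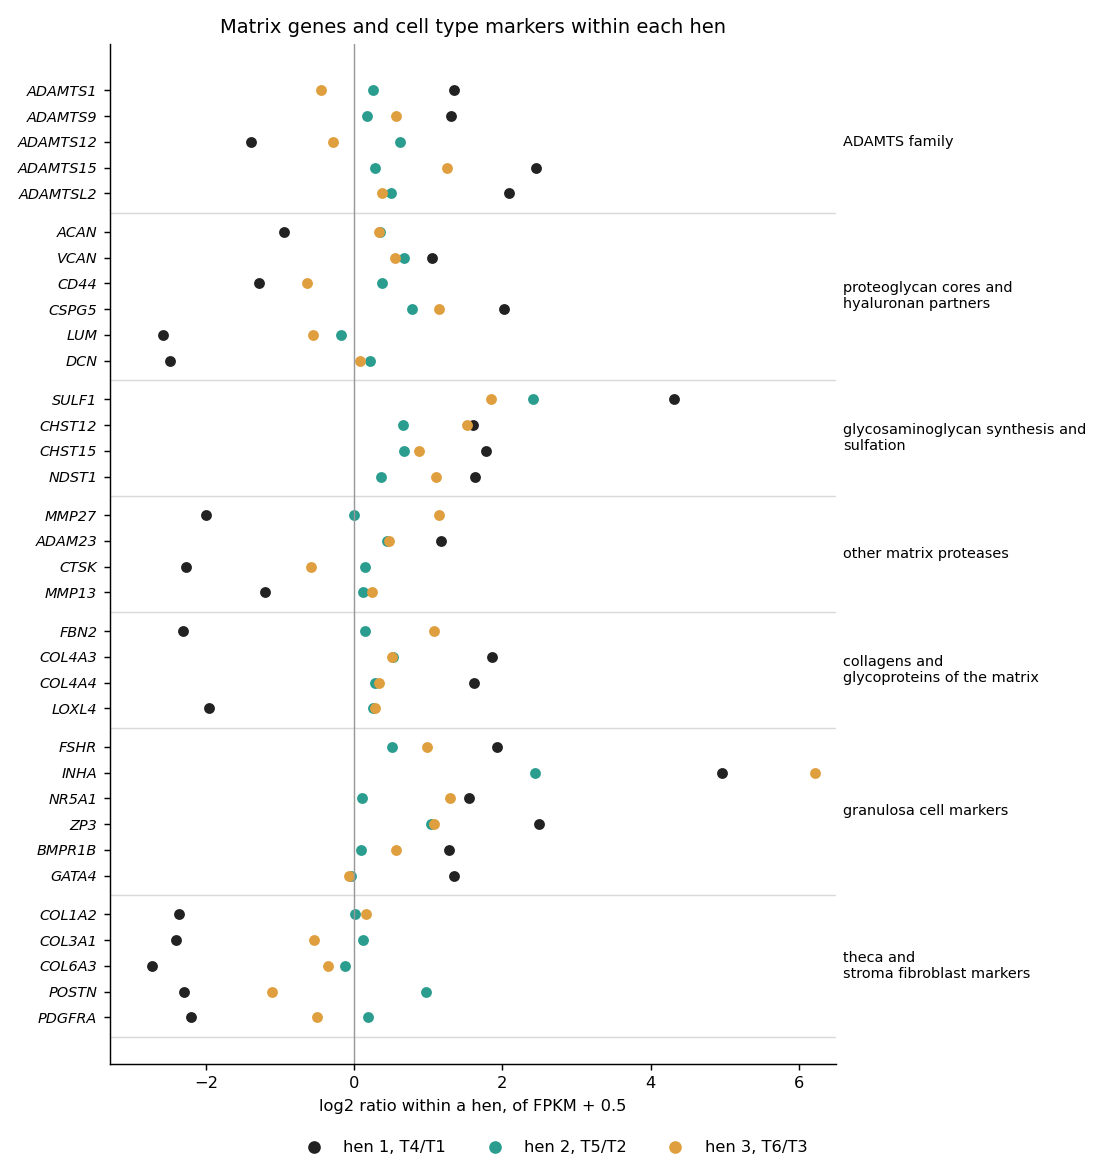
The log2 ratio of FPKM + 0.5 within each hen (horizontal axis) for named matrix genes and for markers of granulosa cells and of theca and stroma fibroblasts, with 1 point per hen. *LUM* and *DCN*, which are also stroma markers, and *COL1A2* and *COL3A1*, which also belong to the collagens, are drawn once. *ADAMTS9*, *ADAMTS15*, *VCAN* and *CSPG5* lie right of 0 in every hen. The 4 sulfation genes drawn do too, but they were chosen for the largest mean ratio in hens 2 and 3. Every gene shown was named through hen 1. The stroma markers lie left of -2 in hen 1 and between -1.12 and 0.97 in hens 2 and 3.

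The ratios of cell type markers are given here by hen. The median log2 ratio of the 6 granulosa markers was 1.74 in hen 1, 0.31 in hen 2 and 1.03 in hen 3, and hen 1 is the hen in which the markers were named. *FSHR*, by whose mRNA the study told the follicles apart, is 1 of the 6, with log2 ratios of 1.92, 0.51 and 0.98. Its direction therefore follows in part from how the follicles were chosen. The medians, and the differences from them given below, rest in part on *FSHR*. In hen 2, 2 of the 6 were 2-fold higher or more, with 1.46% of all genes, and in hen 3, 3 were, with 2.61%. Those shares are over genes not chosen by hen 1 and are no like reference for the markers. The proteases can be set beside these medians. The log2 ratio of *ADAMTS15* minus the granulosa median was 0.71 in hen 1, -0.03 in hen 2 and 0.22 in hen 3. For *ADAMTS9* this difference was -0.43 in hen 1, -0.13 in hen 2 and -0.46 in hen 3. For *ADAMTS1* it was -0.39, -0.05 and -1.48 in the same order of hens. The 7 markers of theca and stroma fibroblasts had medians of -2.40 in hen 1, 0.11 in hen 2 and -0.50 in hen 3. The 3 endothelial markers *CDH5*, *APLNR* and *SOX7* had medians of -2.01 in hen 1, 0.07 in hen 2 and -0.61 in hen 3. *DES* of smooth muscle had a log2 ratio of -2.23 in hen 1, 0.41 in hen 2 and -0.52 in hen 3, and *SOX10* of Schwann cells one of -2.01, -0.46 and -0.32 in the same order of hens. *MPEG1*, a macrophage gene, was at 0.512 FPKM in T4, 3.14 in T5 and 21.8 in T6, against 4.31 in T1, 5.96 in T2 and 51.6 in T3, so that hen 3 had the most of it and T3 the highest level. The part of the cell mixture in the values of the proteases and of aggrecan was not tested.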

How the data were processed

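RNA of 6 small yellow follicles from 3 hens was sequenced, with 1 library per follicle. FPKM values were computed by the authors, and the submitters' notes name Bowtie 0.12.2 and Cufflinks. The authors also deposited a signal, the normalized count, which is the fragments of a gene over a factor of the library. Among normalized counts under 50, 87.7% to 88.2% in a library were whole multiples of a step, within 0.02. The total over that step gave the fragments per follicle. The rest were not whole, so no count model was used. The table also holds 1 column of values that was not used. For the build, the paper names Gallus_gallus-5.0 and the notes mm8.

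Groups and hens follow the sample titles and the paper. Deviations from the trio means correlated at 0.43, 0.18 and 0.53 within hens, and the hen was a block. limma 3.58.1 in R 4.3.3 (trend and robust) was fitted to log2(FPKM + 0.5) for all genes that reached 1 FPKM in 3 or more follicles. The adjustment was Benjamini-Hochberg over all of these, and the limit was 0.05. The pseudocount understates differences of low genes. Follicles of a trio come from separate hens. Within hens, a fold of 2 was counted for genes that reached 1 FPKM in either follicle. Counting intervals are exact (Clopper-Pearson) at 95%. Python 3.11.15 was used with scipy 1.17.1, pandas 2.3.3, matplotlib 3.10.9 and numpy 2.4.6.

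Names (297, of which 21 rest on a description alone) came from the study's T1 vs. T4 annotation. Text names were set by rule: the 4 genes, *FSHR*, every named gene of the ADAMTS, inhibitor and proteoglycan lists, up to 4 of each other matrix list by the mean ratio of hens 2 and 3, matched markers, and the 5 named genes most correlated with each of the 4 genes, of which 1 is not reported here. The members and lists were chosen with earlier results of these data known. Alternatives were pseudocounts of 0.1 and 1, no filter, a filter at 5 FPKM, median-of-ratios scaling, normalized counts with 10 added, no block, each hen left out, a fold of 4 and other eBayes options.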

Additional observations from a re-analysis of the deposited data

How the results depend on the processing

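Under the alternatives that kept all 3 hens, the mean log2 ratio stayed within 1.32 to 1.34 for *ADAMTS15*, 0.67 to 0.69 for *ADAMTS9* and 0.38 to 0.47 for *ADAMTS1*, and no gene was called. Without the replicate block, these means were the same, with an adjusted p of 0.962 for each and 435 genes at an unadjusted p under 0.05. With each hen left out, *ADAMTS15* ranged from 0.76 to 1.85 and *ADAMTS1* from -0.10 (without hen 1) to 0.80, and 0 to 466 genes were called. The 466 came without hen 1, and were 125 without robust and 21 without trend or robust, options chosen after the data were seen. *ACAN* averaged 0.34 without hen 1 and -0.36 to -0.04 otherwise. For protease over aggrecan, a pseudocount of 0.1 FPKM or normalized counts gave negative differences in hens 2 and 3, of -0.35 and -0.22, and of -0.31 and -0.19, whereas a pseudocount of 1 FPKM gave positive ones, of 0.01 and 0.30. Of 48 ratios within hens all kept their direction. *ADAMTS1* in hen 2 had a log2 ratio of 0.41 in normalized counts and 0.26 in FPKM, a shift above its counting error. *ACAN* in hen 1 ranged from -2.40 to -0.55 with the added constants, short of its counting interval of -10.8 to -2.92 with nothing added. At a fold of 4, the genes higher and lower were 138 and 318 in hen 1, 41 and 43 in hen 2, and 52 and 101 in hen 3. At 5 FPKM, 1102 genes were lower in hen 1, 102 higher and 168 lower in hen 2, and 281 lower in hen 3. With 2 hens, 1551 to 2134 genes did not overlap as higher and 1347 to 2025 as lower. The edgeR alternative was not run, because the table holds no whole counts per follicle. Groups of 3 are too small for a test of outliers.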
